A study of Homo sapiens with 12 samples.

Results

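The genes described here are those of cholesterol and fatty acid synthesis: 35 genes listed by symbol, comprising the enzymes of the mevalonate and sterol steps, the sterol regulatory element binding proteins (SREBPs) and their regulators, the enzymes of fatty acid synthesis and desaturation, and 4 genes of sterol transport and efflux. The list used no measured value, though it was chosen with earlier results of these data known. Of the 62069 genes in the count table, 34 were members of the list; ACACA could not be matched by identifier and was not analysed here. All 34 passed the expression filter and were among the 15284 genes tested.

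RNA-seq was performed on IMR90 ER:RAS cells, lung fibroblasts with a RAS protein joined to a hormone-binding piece of the estrogen receptor; adding 4OHT (4-hydroxytamoxifen) switches RAS on and brings about oncogene-induced senescence (OIS). There were 4 groups of 3 libraries: non-induced cells, induced cells (100 nM 4OHT), and induced cells carrying shXPO7_3 or shXPO7_5, independent shRNAs against the nuclear transport receptor XPO7. All groups carried ER:RAS, were at passage 13 and were labelled as day 5, and the growth notes give 7 days in serum-containing medium, renewed on day 4. The study asked how loss of XPO7 alters OIS. According to the study's figure legend for the RNA-seq, cells without an XPO7 shRNA carried the vector. Libraries bear the letters T, A and C in the non-induced group and T, A and B in the others, and nothing states that they came from separate cultures, so each p-value reflects only how these libraries vary, in part perhaps technically.

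Cells make cholesterol from acetyl-CoA through mevalonate, the isoprenoids and squalene. When sterols are low in the endoplasmic reticulum, SCAP escorts the SREBPs to the Golgi, where they are cut and released to the nucleus to switch on sterol and fatty acid genes; when sterols are plentiful, the INSIG proteins hold SCAP back. Excess sterol is sensed by LXR receptors, which raise the efflux pumps ABCA1 and ABCG1. NPC1 carries cholesterol out of lysosomes.

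XPO7 checked the labels: it was 127 to 144 CPM (counts-per-million, with TMM-scaled library sizes) in induced libraries, 26.4 to 28.7 CPM with shXPO7_3 and 50.8 to 54 CPM with shXPO7_5. The fibroblast markers COL1A1, COL1A2, COL3A1, PDGFRB, THY1 and VIM were all above 200 CPM in every library, with 6400 CPM or more of COL1A1. Of these 6, 4 were lower in induced cells, and PDGFRB was higher with shXPO7_5. The epithelial markers EPCAM and KRT8 were tested, at up to 1.11 and 11.6 CPM, and both were lower in induced cells, while SFTPC was at 0 in every library and CDH1 had at most 12 counts. Of the leukocyte, adipocyte and hepatocyte markers, none passed the filter, and CD3E was at 0; the endothelial genes PECAM1 and CDH5 were at 0 too, and VWF was 1.7 to 4.17 CPM and passed no test. The part of these genes in the results was not tested. Total counts ran from 28534141 to 60397769 per library.

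Libraries of 1 group differed in how much GC-rich RNA they held, and the members moved with it. Across the genes tested, none of which is a replicate of another, the Spearman correlation of a library's deviation from its group mean with transcript GC content ran from -0.697 in shXPO7_5 A to 0.718 in shXPO7_5 B, and was 0.66 in shXPO7_3 T and -0.632 in non-induced C. The 9 members under 45% GC were a median of 0.327 (log2 CPM) above their group mean in shXPO7_5 A and 0.222 below it in shXPO7_5 B. The 12 members over 55% GC deviated the other way, by -0.141 and 0.16 in the same libraries. The induced libraries stayed within 0.0279 of their group mean for both sets. Where correcting for GC content and length adds a call, the corrected log2 fold change is therefore given as well.

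**Figure D1:**
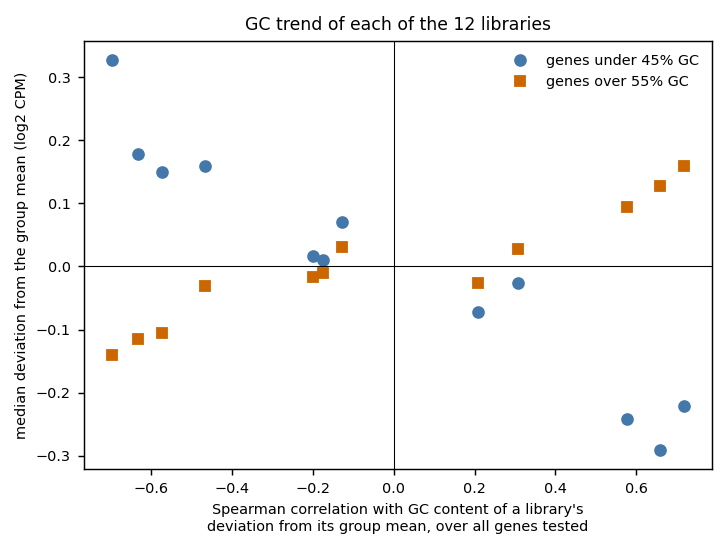
Each of the 12 libraries is a pair of points; the horizontal axis gives the Spearman correlation of its deviation from the group mean with GC content over all genes tested, and the vertical axis the median deviation (log2 CPM) of the 9 members under 45% GC (circles) and the 12 over 55% GC (squares). In 10 of the 12 libraries the 2 sets lie on opposite sides of 0, the exceptions being non-induced A (both above) and shXPO7_5 T (both below); shXPO7_5 A and B have the most extreme correlations, -0.697 and 0.718.

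The sequences before the genes' starts are given first, since SREBPs bind promoters together with other factors, among them NF-Y, which binds CCAAT. RefSeq promoter windows (build GRCh38.p14, 250 bases before to 50 after a start) were given for 30 of the 35 genes, 42 windows in all. Motifs were searched on both strands. CCAAT stood in 24 of the 42 windows (57.1%), against 34.6% of all 35116 promoter windows, and in at least 1 window of 20 of the 30 genes. It was present in 5 of 6 mevalonate genes and 8 of 9 sterol genes with a window, in 2 of 5 regulators, 4 of 7 fatty acid genes and 1 of 3 transport genes. Genes without it were ABCA1, NPC1, FADS1, INSIG2, SREBF1, SCAP, PMVK, LPIN1, ELOVL6 and CYP51A1. The sterol response element searched, TCACNCCAC, was found in SREBF2 alone (1 of 42 windows, 2.38%, against 1.13% of all windows), and the E box CACGTG in ABCA1, INSIG1, LSS, SC5D and SCAP (14.3% of the windows, against 7.26%). A match to letters is no evidence of binding, and genes with several windows count once per window.

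The stretches printed here number 6, read 5′ to 3′ on the gene's strand and ending before the start: SREBF2 for the sterol response element, INSIG1 as the regulator described with both induction and knockdown, MVK, NSDHL and MSMO1 for having the most CCAAT boxes in a single window, and ABCA1 as an efflux gene without one. Capitals mark the sterol response element, the CCAAT box read on either strand and, in INSIG1 and ABCA1, the E box.
SREBF2, chr22:41832957-41833018, plus strand: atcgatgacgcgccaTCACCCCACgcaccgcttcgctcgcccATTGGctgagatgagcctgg
INSIG1, chr7:155297693-155297843, plus strand: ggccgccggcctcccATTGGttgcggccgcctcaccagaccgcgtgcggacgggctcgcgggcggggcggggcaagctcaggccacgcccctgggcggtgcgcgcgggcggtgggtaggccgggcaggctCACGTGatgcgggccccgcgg
MVK, chr12:109573569-109573767, plus strand: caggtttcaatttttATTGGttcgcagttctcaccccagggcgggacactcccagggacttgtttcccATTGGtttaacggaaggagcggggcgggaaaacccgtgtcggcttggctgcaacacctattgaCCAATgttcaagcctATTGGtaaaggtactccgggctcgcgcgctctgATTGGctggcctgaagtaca
NSDHL, chrX:152830820-152830998, plus strand: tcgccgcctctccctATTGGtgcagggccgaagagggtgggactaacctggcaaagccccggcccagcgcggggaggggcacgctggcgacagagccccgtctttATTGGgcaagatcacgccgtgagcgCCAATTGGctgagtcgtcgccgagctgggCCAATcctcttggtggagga
MSMO1, chr4:165327469-165327654, plus strand: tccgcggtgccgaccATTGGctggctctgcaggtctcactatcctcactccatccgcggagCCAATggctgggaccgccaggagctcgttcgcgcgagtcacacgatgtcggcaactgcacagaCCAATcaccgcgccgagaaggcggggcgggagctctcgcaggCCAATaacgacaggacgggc
ABCA1, chr9:104928282-104928317, minus strand: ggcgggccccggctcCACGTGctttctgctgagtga

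In non-induced cells, the levels per kilobase of exon spanned from ACLY, which makes cytosolic acetyl-CoA from citrate, at 120 ± 9.32 CPM per kb (SD, n = 3), to ABCG1 at 0.0381 ± 0.0207. SCD, which desaturates stearate, followed at 62.5 ± 3.86 CPM per kb, then MSMO1, a C4 demethylase of sterols, at 35.6 ± 1.94 and FDPS, which makes farnesyl pyrophosphate, at 34.7 ± 2.62. The values of MSMO1 and FDPS lay within their spread of each other. FASN, the fatty acid synthase, was 25.2 ± 2.33 CPM per kb and SREBF2, the SREBP of the sterol genes, 17.9 ± 1.52, against 5.29 ± 0.466 for SREBF1. Taken per kb of the longest transcript instead, ACLY stayed first and ABCG1 last, and MSMO1 moved from rank 3 to 6. The low value of CYP51A1, 0.681 CPM per kb, is uncertain. Of its exon bases, 79.4% are shared with other annotated genes on the same strand, which counting by strand would not tell apart.

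The first comparison, induced against non-induced cells, asks how OIS moved these genes. Genes of sterol export rose most: NPC1, ABCA1 and ABCG1 were higher in every induced library than in any non-induced one. Of these, ABCG1 was near the limit of detection before induction and passed the filter only through the groups given 4OHT. Sterol synthesis was split, with IDI1, MSMO1, NSDHL and SQLE higher and LSS, PMVK and MVK lower, and the brake genes INSIG1 and INSIG2 rose while SCAP fell. SREBF1, SREBF2 and FASN did not pass the test. In all, edgeR's quasi-likelihood test called 23 of the 34 genes at an adjusted p (Benjamini-Hochberg) under 0.05, 16 higher and 7 lower. The background was high: 50.9% of all genes tested were called, 24.8% higher and 26.1% lower. The members' share was 67.6%, somewhat above it. The libraries of the 2 groups did not overlap for 26 of the 34 (76.5%), against 63.2% of all genes. In bulk RNA, a change in the RNA of each cell and a change in the share of cells that hold it cannot be told apart. The median log2 fold change of the 34 was 0.298, against -0.007 over all genes tested. Only 4 members (NPC1, ABCA1, ABCG1 and LSS) were called with a log2 fold change of at least 1 either way, where 16.8% of all genes were. After the GC content and length correction 28 members were called, 21 higher and 7 lower, with 63.9% of all genes called.

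**Figure D2:**
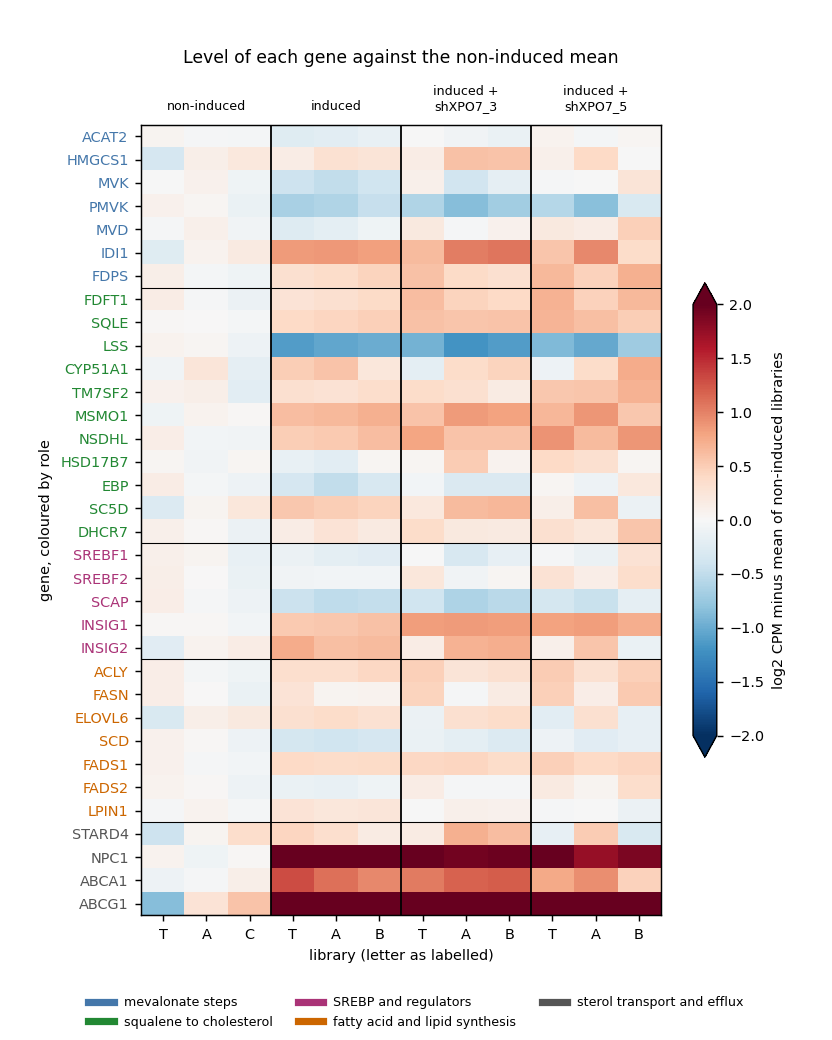
Rows are the 34 genes, grouped and coloured by role, columns the 12 libraries in their 4 groups, and the colour gives log2 CPM minus the mean of the non-induced libraries, with colours saturating at 2 either way. NPC1, ABCA1 and ABCG1 stand out as higher and LSS and PMVK as lower in all 9 induced libraries, while the letters T and B of shXPO7_5 part from A in rows such as STARD4 and INSIG2.

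Among the transport genes, 3 of 4 rose, where 24.8% of all genes did. NPC1 (ENSG00000141458) was 24, 21.6 and 23.3 CPM in non-induced libraries T, A and C and 100, 96.3 and 95.2 CPM in induced libraries T, A and B. The groups were far apart and tight within themselves, with 4.23 times the mean in induced cells (log2 fold change 2.08, standard error, SE, 0.092, edgeR adjusted p = 2.48e-09). ABCA1 (ENSG00000165029), which exports cholesterol to apolipoproteins, was 126, 133 and 147 CPM in non-induced and 333, 289 and 263 CPM in induced libraries, 1.13 as log2 fold change (SE 0.12, edgeR adjusted p = 7.15e-06). ABCG1 (ENSG00000160179), which passes cholesterol to HDL, was near the limit of detection before induction, with 3, 11 and 12 counts or 0.0927, 0.267 and 0.34 CPM. It reached 2.71, 2.02 and 2.52 CPM in induced libraries, 10.4 times the non-induced mean (log2 fold change 3.33, 95% confidence interval, CI, 2.67 to 4). ABCG1 passed the filter only through the groups given 4OHT, where it was high, so its call is no independent support for a rise. STARD4, a carrier of sterol within the cell, was 36.7, 50.6 and 62.1 CPM in non-induced and 65.4, 61.8 and 54.8 CPM in induced libraries, which overlap. Its log2 fold change of 0.28 did not pass (95% CI -0.21 to 0.78), though it was called after the GC content and length correction at a smaller value, 0.15. STARD4 was also called with the library letter as a block. The first 3 were called under each of the 22 alternatives of the processing, as were 16 of the 23 members in all.

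The mevalonate enzymes went both ways, with 2 of 7 higher and 3 lower (71.4% called, against 50.9% of all genes). Their median log2 fold change was -0.178. IDI1 (ENSG00000067064), which isomerises isopentenyl pyrophosphate, was 57.8, 71.4 and 77.3 CPM in non-induced and 124, 124 and 121 CPM in induced libraries, the largest rise of the pathway (log2 fold change 0.84, SE 0.16, edgeR adjusted p = 0.000763). FDPS rose by 0.37 on the log2 scale. The kinases before them fell: MVK, which phosphorylates mevalonate, was 17.1, 18.3 and 16.3 CPM in non-induced and 12.9, 12.2 and 13.1 CPM in induced libraries. PMVK, the kinase that follows it, was 22.5, 21.7 and 19.3 against 13.5, 13.9 and 15.3 CPM. The log2 fold changes were -0.44 (SE 0.12) for MVK and -0.57 (SE 0.13) for PMVK, and neither gene's libraries overlapped. ACAT2, which joins acetyl-CoA units, fell by 0.20 on the log2 scale, a small difference that lost its call under 5 of the 22 alternatives. In ACAT2, 52.3% of exon bases are shared with genes on the other strand. No source used here says whether the counting used strand, so its counts are uncertain. HMGCS1, the synthase of HMG-CoA, and MVD, which makes isopentenyl pyrophosphate, were not called, with log2 fold changes of 0.22 (95% CI -0.12 to 0.56) and -0.18 (-0.40 to 0.039). HMGCS1 was called as higher after the GC content and length correction, at 0.18, and also with the library letter as a block.

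Of the 11 enzymes from squalene to cholesterol, 6 rose and 2 fell (72.7% called, against 50.9% of all genes). Their median log2 fold change was 0.321. LSS (ENSG00000160285), the cyclase that makes lanosterol, was 152, 150 and 135 CPM in non-induced and 66.8, 70.7 and 73.2 CPM in induced libraries. The induced mean was 0.483 of the non-induced one (log2 fold change -1.05, SE 0.094, edgeR adjusted p = 1.52e-06). SQLE, the squalene epoxidase acting just before LSS, went the other way, from 115, 114 and 111 to 150, 154 and 159 CPM (log2 fold change 0.44, SE 0.061, edgeR adjusted p = 6.38e-05). MSMO1 rose from 97, 108 and 104 to 158, 161 and 168 CPM, 0.65 as log2 fold change (SE 0.097, edgeR adjusted p = 0.000128). NSDHL, its partner in C4 demethylation, was 42, 36.6 and 36.2 against 53.9, 54.8 and 58.8 CPM, a log2 fold change of 0.55. FDFT1, the squalene synthase, and TM7SF2, a sterol C14 reductase, each rose by 0.32, and SC5D, a desaturase, by 0.48. These 3 depended more on the processing: SC5D was called under 12 of the 22 alternatives, TM7SF2 under 17 and FDFT1 under 21. SC5D lost its call when any one of several libraries was left out, among them non-induced T or A and each of the induced ones. EBP, the isomerase of the late steps, fell from 25.7, 22.5 and 21.6 to 18.4, 16.4 and 18.5 CPM (log2 fold change -0.39, SE 0.11). CYP51A1, HSD17B7 and DHCR7 were not called, at 0.42, -0.097 and 0.19, and the first 2 were low, at 2.44 and 2.59 CPM in non-induced cells. DHCR7 was called as higher after the GC content and length correction, at 0.35, and it and CYP51A1 were called as higher without the 3 shRNA libraries with the strongest GC trend.

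Among the 5 regulators, the INSIG genes rose and SCAP fell (60% called, near the 50.9% of all genes). INSIG1 (ENSG00000186480), itself an SREBP target, was 73.8, 73.9 and 70.1 CPM in non-induced and 105, 106 and 109 CPM in induced libraries (log2 fold change 0.55, SE 0.058, edgeR adjusted p = 6.42e-06). INSIG2 rose from 12.6, 15.6 and 16.4 to 24.7, 22.3 and 22.8 CPM, a log2 fold change of 0.64. SCAP was 62.7, 56.8 and 53.3 CPM in non-induced and 42.5, 40.6 and 41.4 CPM in induced libraries, -0.47 as log2 fold change (SE 0.091, edgeR adjusted p = 0.000942). All 3 kept their calls under the 22 alternatives. The SREBP genes themselves showed little difference. SREBF2 was 146, 136 and 123 against 128, 130 and 130 CPM, which overlap, with a log2 fold change of -0.064 (95% CI -0.26 to 0.13). SREBF1, the gene of the isoforms that drive fatty acid synthesis, had a log2 fold change of -0.19 (95% CI -0.44 to 0.062). These are levels of RNA, and the cleavage that activates SREBPs was not measured.

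The fatty acid genes moved little, with 3 of 7 higher and 1 lower (57.1% called, near the 50.9% of all genes). None moved by as much as 0.5 on the log2 scale. ACLY rose from 680, 607 and 587 to 789, 790 and 828 CPM (log2 fold change 0.36, SE 0.082, edgeR adjusted p = 0.00277). FADS1, the delta-5 desaturase of polyunsaturated fatty acids, rose from 167, 155 and 152 to 208, 203 and 205 CPM, a log2 fold change of 0.38. LPIN1, the phosphatidate phosphatase that makes diacylglycerol, rose by 0.24. SCD fell from 354, 339 and 313 to 261, 253 and 265 CPM (log2 fold change -0.37, SE 0.065, edgeR adjusted p = 0.000484), with no overlap. FASN was 258, 236 and 214 against 286, 244 and 247 CPM, which overlap. ELOVL6, which elongates palmitate, and FADS2, the delta-6 desaturase next to FADS1, were not called, at 0.31 and -0.12. FASN and ELOVL6 were called as higher after the GC content and length correction, at 0.31 and 0.28. ELOVL6 was also called with the library letter as a block, and without the 3 shRNA libraries with the strongest GC trend. LPIN1 and ACLY, with FDPS, FDFT1, TM7SF2 and SC5D, lost their calls with upper-quartile factors, which shifted the median of all genes to -0.10.

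**Figure D3:**
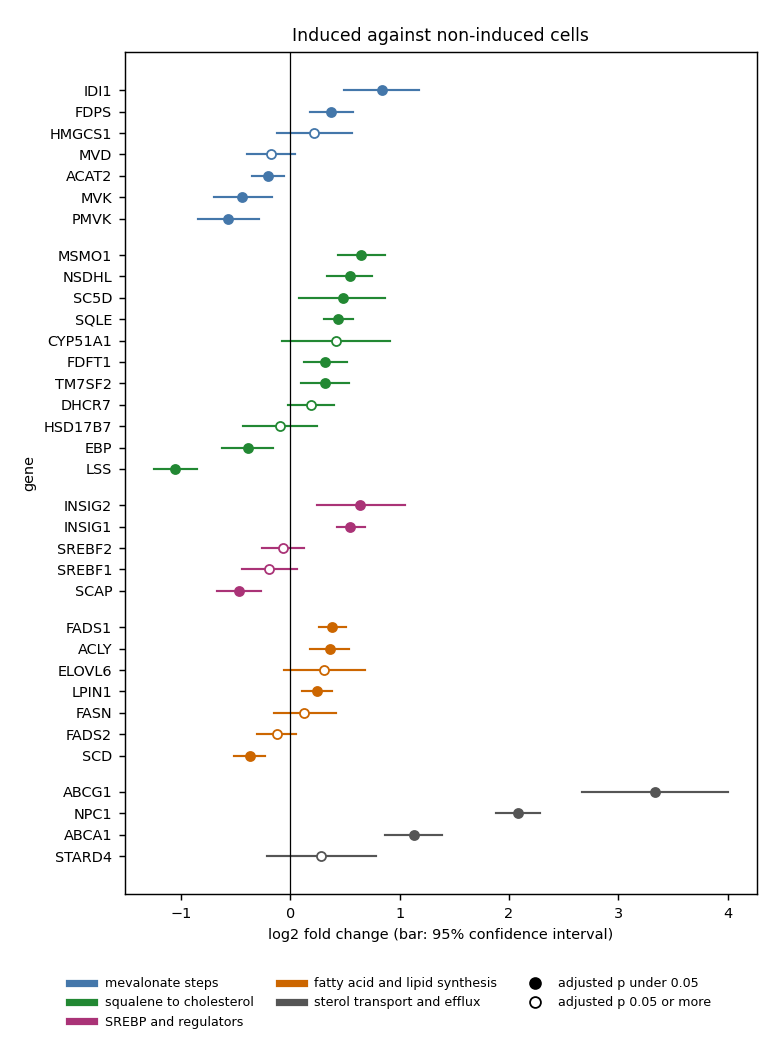
The log2 fold change of each of the 34 genes in induced against non-induced cells (3 libraries each), by role, with bars for the 95% CI and filled points at an adjusted p under 0.05. ABCG1 at 3.33, NPC1 at 2.08 and ABCA1 at 1.13 lie to the right of all others and LSS at -1.05 to the left.

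Other genes of these pathways were counted from lists chosen by function, against the same background of 50.9% of all genes called, 24.8% higher and 26.1% lower. Of 6 genes of SREBP processing, 4 rose in induced cells and none fell, led by PAQR3 (0.78), a Golgi anchor of SCAP, MBTPS2 (0.46), the site-2 protease that releases SREBPs, and SPRING1 (0.43), a cofactor of the site-1 protease. Of 12 further SREBP targets, 3 rose and 4 fell: ACACB, the mitochondrial acetyl-CoA carboxylase, rose by 0.92 and ACSL3, an acyl-CoA synthetase, by 0.50, while PCYT2 was at -0.84, ACSS2, which makes acetyl-CoA from acetate, at -0.56 and TMEM97 at -0.45. Of 9 genes of the LXR receptors, their partners and further targets, 2 rose, MYLIP (0.71) and SMPDL3A (0.45), and 5 fell, among them PLTP (-0.79), RXRA (-0.44) and LPCAT3 (-0.39). The receptors NR1H2 and NR1H3 were not called, at 0.17 and -0.23. Of 8 genes of lysosomal exit, storage and transfer, 2 rose and 4 fell, with GRAMD1B, a carrier of cholesterol from the plasma membrane, at -1.07, SOAT1, which esterifies cholesterol, at -0.45, and NPC2, the lysosomal partner of NPC1, at -0.42. NPC2 was 150, 136 and 133 CPM in non-induced and 103, 103 and 108 CPM in induced libraries, while NPC1 rose in the same libraries.

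Of 12 genes of elongation and desaturation, 5 rose and 2 fell. ELOVL3 had 2, 4 and 2 counts in non-induced libraries and 35, 25 and 57 in induced ones, with a log2 fold change of 3.72. ELOVL7 (1.09) was lower still, at 11 counts or fewer in both groups. Both passed the filter only through groups given 4OHT, so their calls are no independent support for a rise. ELOVL4, which elongates very long chains, rose by 0.90 from 15.9, 17.3 and 18 to 31.4, 31.9 and 32.3 CPM. HACD1, a dehydratase of elongation, was at -1.19 and SCD5, the second stearoyl-CoA desaturase, at -0.85, the same direction as SCD. Of 10 isoprenoid enzymes outside the sterol branch, 3 rose, led by NUS1 (0.49) and PDSS2 (0.39), and 2 fell, FNTB (-0.78), a subunit of farnesyltransferase, and COQ2 (-0.64) of ubiquinone synthesis. Over the 6 lists, edgeR called 36 of 57 genes (50.9% of all genes) and DESeq2 32 (49.2% of all genes), and the median log2 fold change ran from -0.257 for the LXR list to 0.418 for SREBP processing.

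**Figure D4:**
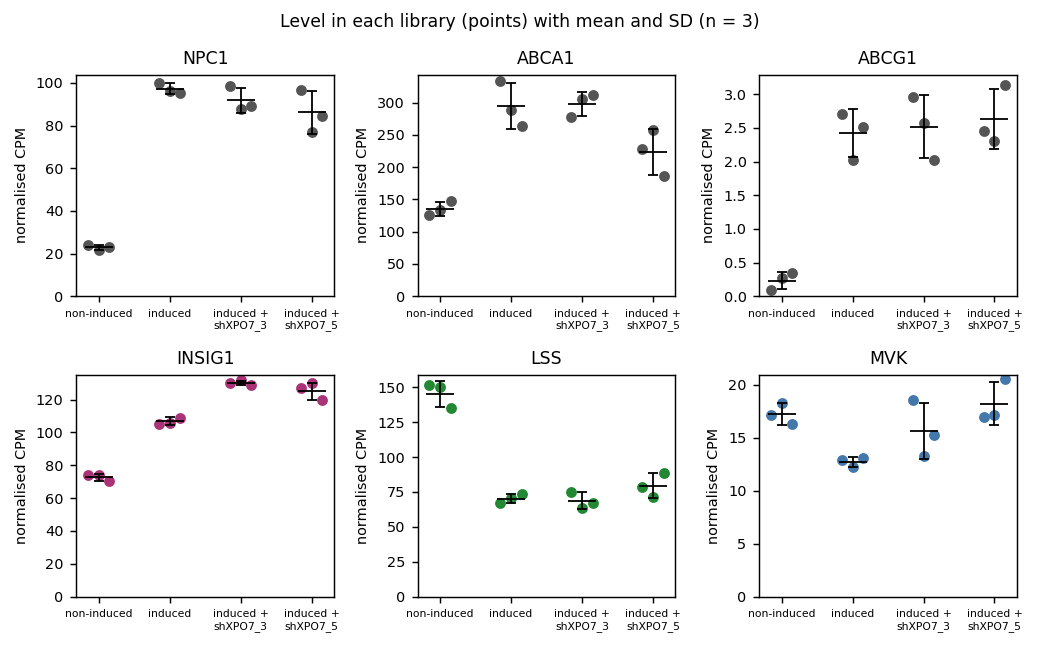
Normalised CPM of NPC1, ABCA1, ABCG1, INSIG1, LSS and MVK in each library (points), with the mean and SD of the 3 libraries of a group (bar and whiskers); each vertical axis starts at 0. NPC1, ABCA1 and ABCG1 were higher and LSS lower in all induced libraries, INSIG1 was at 120 CPM or more with either shRNA, above its induced values though not called, and MVK fell with induction and was likewise above its induced values with either shRNA, uncalled.

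The next comparisons set each shRNA group against induced cells and ask what XPO7 knockdown did to these genes. Both use the same 3 induced libraries, so the 2 results are not independent of each other. No member passed the test with either shRNA. INSIG1 came nearest with shXPO7_3, and MVD, MVK and LPIN1 with shXPO7_5. Of the 11 sterol enzymes, 3 had higher values in every shXPO7_3 library than in any induced one (7.46% of all genes did). With shXPO7_5 it was 5 of the 11 (14.2% of all genes). NPC1, ABCG1 and IDI1, which had risen with induction, and LSS, which had fallen, overlapped with their induced levels in both groups. All differences were small, between -0.45 and 0.51 on the log2 scale.

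With shXPO7_3, 0 of 34 members were called by edgeR (background 0.124% of genes tested), 6 had an unadjusted p under 0.05 (6.41% of all genes), and DESeq2 called 1, INSIG1 (0.576% of all genes). The libraries did not overlap with the induced ones for 10 members (14.6% of all genes), 9 of them higher (7.46% of all genes). With shXPO7_5, edgeR called 0 of 34 (background 0.589%), 17 had an unadjusted p under 0.05 (21.6% of all genes), and DESeq2 called 7 (2.79% of all genes): MVK, MVD, EBP, SREBF2, INSIG1 and FADS2 higher and LPIN1 lower. Here 17 members did not overlap (26.8% of all genes), 14 of them higher (14.2% of all genes). The median log2 fold change was 0.06 for shXPO7_3 and 0.164 for shXPO7_5, beside -0.003 and 0.006 over all genes, and the latter fell to 0.072 after the GC content and length correction.

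These counts changed when single libraries were left out and after the GC content and length correction, and the cause was not tested. The count for shXPO7_5 was 16 (11 higher) without shXPO7_5 A, when 23% of all genes were called. It was 3 without shXPO7_3 T (1.17% of all genes) and 0 without any one of the other 10 libraries. After the GC content and length correction it was 10, namely ACAT2, MVK, FDFT1, MSMO1, EBP, SREBF2, INSIG1, SCD and FADS2 higher and LPIN1 lower (background 3.08%). For shXPO7_3 the corrected count was 2, INSIG1 and STARD4, both higher (background 2.22%). STARD4 was at 0.20 both before and after the correction.

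INSIG1 was not called with either shRNA but had close values with both. It was 105, 106 and 109 CPM in induced libraries, 130, 132 and 129 CPM with shXPO7_3 and 127, 130 and 120 CPM with shXPO7_5. No knockdown library reached down to an induced one, and the spread within groups was narrow. The log2 fold changes were 0.29 (SE 0.057, edgeR adjusted p = 0.0921) and 0.24 (SE 0.058, edgeR adjusted p = 0.0854). After the correction they were 0.32 and 0.28, with edgeR adjusted p = 0.00107 and 0.00216. Over the 22 alternatives the log2 fold change stayed within 0.28 to 0.32 for shXPO7_3, where 3 made the call, and within 0.21 to 0.29 for shXPO7_5, where 4 did. The exact permutation test over 3 libraries against 3 gave p = 0.1, two-sided, for both, the smallest it allows.

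Among the mevalonate enzymes, MVK and MVD had the largest values. MVK was 18.5, 13.3 and 15.2 CPM with shXPO7_3 and 16.9, 17.1 and 20.5 CPM with shXPO7_5, beside 12.9, 12.2 and 13.1 CPM in induced cells. All 6 knockdown libraries were above the induced ones, although shXPO7_3 A exceeded the highest by little. The log2 fold changes were 0.29 (95% CI 0.032 to 0.56) and 0.51 (0.25 to 0.78), the latter with edgeR adjusted p = 0.0797. MVD was 41.4, 35.5 and 38.3 CPM with shXPO7_3 and 41.6, 40 and 50.4 CPM with shXPO7_5, against 30.2, 31.7 and 34.1 CPM in induced cells, log2 fold changes of 0.26 (SE 0.1) and 0.46 (SE 0.1, edgeR adjusted p = 0.0615). MVK and MVD are rich in GC, at 58.24% and 63.69%, and the correction lowered their shXPO7_5 values to 0.34 and 0.23. ACAT2 was also above the induced libraries in every knockdown library, at 0.13 and 0.22, the latter 0.17 after the correction. IDI1 was 105, 139 and 144 CPM with shXPO7_3 and 100, 132 and 88.5 CPM with shXPO7_5, on both sides of its induced values. HMGCS1 and IDI1, at 40.16% and 41.07% GC, were low in the same libraries: T of either shRNA and B of shXPO7_5.

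Among the sterol enzymes, EBP was 22.3, 18.9 and 19.1 CPM with shXPO7_3 and 24, 21.6 and 26.9 CPM with shXPO7_5, above the induced 18.4, 16.4 and 18.5 CPM in each library. Its log2 fold changes were 0.18 (95% CI -0.057 to 0.41) and 0.44 (0.21 to 0.68), and the latter was 0.33 after the correction. FDFT1 had values of 0.16 and 0.28 and SQLE of 0.13 and 0.15, likewise with no overlap, and none was called. With shXPO7_5 the corrected value of FDFT1 was 0.26, and that of MSMO1 rose from 0.043 to 0.37. SQLE was 171, 167 and 169 CPM with shXPO7_3 against 150, 154 and 159 CPM in induced cells, in the direction that induction had taken. LSS stayed low, at 75.2, 63.7 and 67 CPM with shXPO7_3 and 78.8, 71.4 and 88.7 CPM with shXPO7_5, and none of these libraries came near the non-induced 135 to 152 CPM. SC5D, at 38.64% GC, was 61.7, 86.1 and 52.5 CPM with shXPO7_5, with library A apart from T and B. NSDHL and TM7SF2 were above the induced libraries with shXPO7_5, at 0.26 and 0.28.

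Of the other regulators, SREBF2 was 157, 129 and 138 CPM with shXPO7_3 and 164, 148 and 173 CPM with shXPO7_5, against 128, 130 and 130 CPM in induced cells. Only the shXPO7_5 libraries were clear of the induced ones, with 0.32 as log2 fold change (SE 0.089, edgeR adjusted p = 0.112), which fell to 0.18 after the correction. SREBF1 had values of 0.025 and 0.24 and SCAP of -0.049 and 0.15. INSIG2, at 35.45% GC, was 15.9, 21.7 and 13.5 CPM with shXPO7_5, below every induced library, with a log2 fold change of -0.45 that became -0.084 after the correction.

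In the fatty acid group, LPIN1 had lower and FADS2 and SCD higher values with either shRNA, none of them called. LPIN1 was 105, 102 and 103 CPM in induced libraries, 86.4, 94 and 92.8 CPM with shXPO7_3 and 85.7, 86.7 and 80.1 CPM with shXPO7_5. The knockdown libraries lay below all induced ones and spanned the non-induced 84.8 to 91.2 CPM. The log2 fold changes were -0.18 (95% CI -0.32 to -0.046) and -0.30 (-0.43 to -0.16), with edgeR adjusted p = 0.524 and 0.059. LPIN1 has a GC content of 47.45%. Its shXPO7_5 value stayed within -0.32 to -0.25 over the 22 alternatives of the processing, of which 6 called it. SCD was 305, 291 and 276 CPM with shXPO7_3 and 313, 286 and 298 CPM with shXPO7_5, between the induced 253 to 265 CPM and the non-induced 313 to 354 CPM, with 1 library at the lower end of the latter. FADS2 was 292, 260 and 261 CPM and 298, 276 and 338 CPM with shXPO7_3 and shXPO7_5, against 240 to 248 CPM in induced libraries. With shXPO7_5 the correction took LPIN1 from -0.30 to -0.28, SCD from 0.20 to 0.23 and FADS2 from 0.32 to 0.15. ACLY, FASN, FADS1 and ELOVL6 overlapped with the induced libraries with either shRNA.

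NPC1 and ABCG1 overlapped with their induced levels with either shRNA, and ABCA1 did so with shXPO7_3. NPC1 was 98.5, 87.7 and 89.4 CPM with shXPO7_3 and 96.9, 77 and 84.7 CPM with shXPO7_5, overlapping with the induced libraries and far above the non-induced ones. ABCG1 was 2.96, 2.57 and 2.02 CPM and 2.46, 2.3 and 3.14 CPM, with log2 fold changes of 0.039 and 0.12. ABCA1 was 277, 305 and 312 CPM with shXPO7_3 and 228, 258 and 187 CPM with shXPO7_5, and the latter lay below every induced library. Its log2 fold changes were 0.013 (95% CI -0.24 to 0.27) and -0.40 (-0.66 to -0.14), with edgeR adjusted p = 0.135 for shXPO7_5. The direct test of the 2 shRNAs did not pass (log2 fold change -0.41, edgeR adjusted p = 0.388). STARD4 was 54.6, 80.1 and 74.5 CPM with shXPO7_3 and 43.5, 68.9 and 39.3 CPM with shXPO7_5. Its induced libraries were at 65.4, 61.8 and 54.8 CPM, and both groups overlapped with them (log2 fold changes 0.20 and -0.26).

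**Figure D5:**
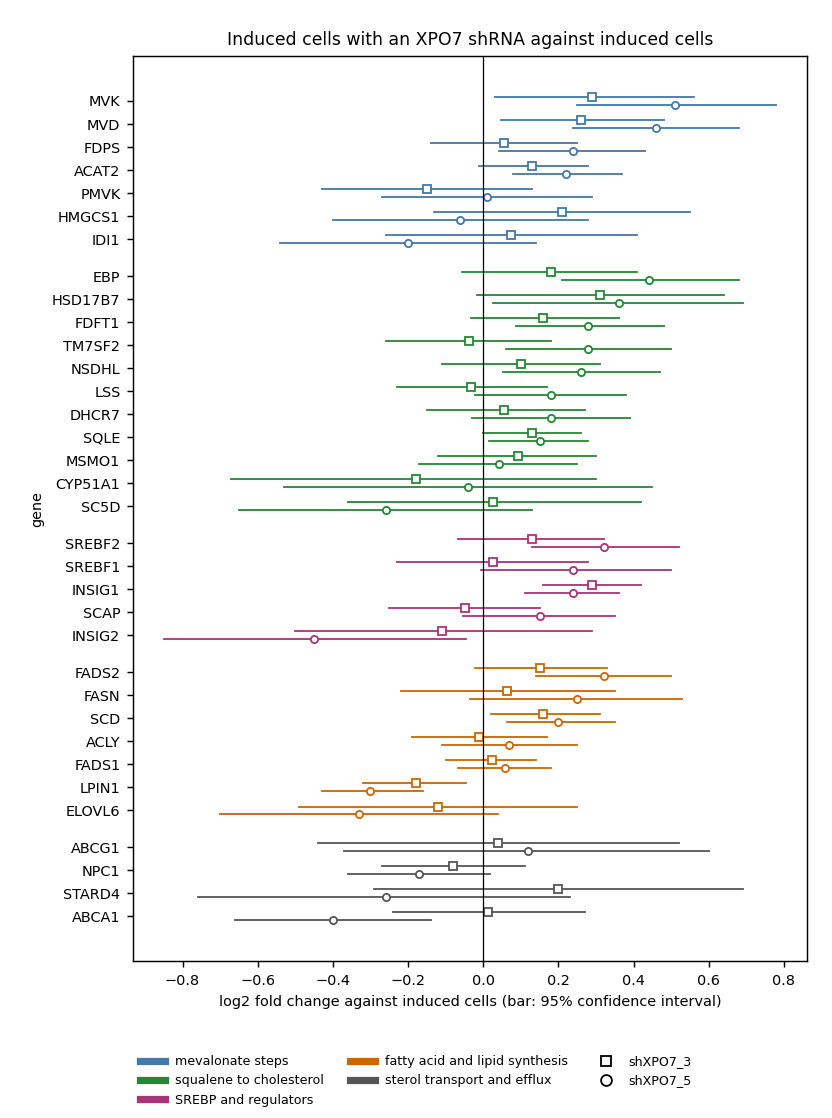
The log2 fold change of each gene against induced cells with shXPO7_3 (squares) and shXPO7_5 (circles), by role, with bars for the 95% CI; each group has 3 libraries and both share the induced ones. INSIG1, MVK and MVD lie right of 0 and LPIN1 left of it with either shRNA, ABCA1 only with shXPO7_5, and no gene was called.

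Comparing shXPO7_5 with shXPO7_3 cells directly, edgeR called 0 of 34 members (background 0.0131%, and 0.288% after the GC content and length correction). DESeq2 called 0 too (background 0.177%), and 5 members had an unadjusted p under 0.05 (11.9% of all genes). These were ABCA1, TM7SF2 (0.32), EBP (0.27), LSS (0.21) and SREBF2 (0.20), the last 4 higher with shXPO7_5. The 2 knockdowns differed in depth, with XPO7 lower with shXPO7_3, while the larger values of these genes were mostly with shXPO7_5. The shXPO7_5 libraries also had the widest GC trend. Whether depth or GC trend bears on these values was not tested.

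Of the 6 further lists, none had a gene called by edgeR with either shRNA. The nearest was FNTB, which was 0.738, 0.638 and 0.787 CPM (27, 18 and 39 counts) in induced libraries. It was 1.15, 1.36 and 1.23 CPM with shXPO7_3 and 1.18, 1.27 and 1.47 CPM with shXPO7_5, close to the non-induced 1.08 to 1.42 CPM. FNTB rests on few counts, and overlap of its exons with other genes was not examined. Its log2 fold changes were 0.77 (edgeR adjusted p = 0.136) and 0.85 (edgeR adjusted p = 0.0517). TMEM97, a sterol-responsive partner of NPC1, had 0.31 and 0.16. After the GC content and length correction FNTB was called as higher with both shRNAs, at 0.76 and 0.73 (edgeR adjusted p = 0.0336 and 0.0376), and TMEM97 with shXPO7_3, at 0.34 (edgeR adjusted p = 0.0252). Among the 57 genes of these lists, 3 had an unadjusted p under 0.05 with shXPO7_3 (6.41% of all genes) and 14 with shXPO7_5 (21.6% of all genes), and DESeq2 called 0 and 1 (MID1IP1), against 0.576% and 2.79% of all genes.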

How the data were processed

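Read counts per gene were deposited for 12 libraries as raw values, with no scaling by the authors. Builds named by the submitters' processing notes are GRCh37 and hg19, and the tools are CASAVA (1.8.4), TopHat2 (2.0.11) and featureCounts (1.18.0). The library kit was for stranded mRNA; no source used here gives the annotation or strand setting of the counting. There were 62069 genes and 92 spike-in entries, the latter 0 throughout and left out. Symbols came from a table of gene names, or for 282 genes from GENCODE release 29; exon length and GC content came from that release (GRCh38, matched by identifier only).

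The main analysis used edgeR 4.0.16 in R 4.3.3: filterByExpr, TMM scaling and a quasi-likelihood model of the 4 groups over all 12 libraries, with Benjamini-Hochberg adjustment over all 15284 genes tested. The steps were tested on simulated counts. Pairs of libraries within a group differed beyond sampling noise (a chi-square per gene between 4.27 and 56.2), so none was counted as a repeat. Levels are CPM. Log2 CPM used a prior count of 2. Total counts per library set the precision of a level, and low genes such as ABCG1 are the least precise.

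Alternatives were upper-quartile and RLE factors, a filter of only 1 count, of 1 CPM in at least 6 libraries, the library letter as a block, only the groups compared, DESeq2 1.42.0, each library left out in turn, and GC content and length corrected for (a spline with 5 degrees of freedom per library, used as an offset; 97.3% of genes tested had both values), alone and with the block. Leaving out together the 3 shRNA libraries with the strongest GC trend was added after seeing the data. All members were named, with up to 3 genes each way of each further list with the largest change among those called; NR1H2, NR1H3, FNTB and TMEM97, uncalled with the shRNAs or at induction, were named after their values were seen, as was MID1IP1. The members and lists were chosen with earlier results of these data known. Gene lists are from textbook function.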

Additional observations from a re-analysis of the deposited data

How the results depend on the processing

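Over the 22 alternatives, the count for induced against non-induced cells stayed between 17 and 28. These ends came with upper-quartile factors (49.1% of all genes called) and with the GC content and length correction (63.9%). Of the members, 16 were called in each alternative and 5 in none, and no called member changed sign. The count for shXPO7_3 against induced cells was 0 except with DESeq2 (1), the GC content and length correction (2) and that correction with the replicate block (4). For shXPO7_5 it was 2 with no filter beyond 1 count, 1 with the filter of 1 CPM, 1 with the replicate block, 7 with DESeq2, 10 with the correction and 16 with the correction and the replicate block, and 0 to 16 with 1 library left out. The only sign to turn with a call was that of HMGCS1 with shXPO7_5, at 0.2 with the correction and the replicate block. Without the 3 shRNA libraries with the strongest GC trend, the counts were 26, 0 and 0 (55.1%, 0.0859% and 0.00613% of all genes called). The count for shXPO7_5 against shXPO7_3 was 0 under each alternative. The cause of these differences was not tested.

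The letters were not taken to pair the libraries, since the labels do not say what they mark. Same-letter deviations correlated at 0.204 and 0.212 between induced and non-induced cells, which share only 2 letters, from -0.0172 to 0.0608 between shXPO7_3 and induced cells, from -0.0706 to 0.185 between shXPO7_5 and induced cells and from -0.234 to 0.368 between the shRNAs, and 3, 0, 3 and 3 of 6 libraries correlated best with their own letter in the 4 comparisons. With the replicate block, 25 members were called for induction, with 52.3% of all genes called. With 3 libraries a group, log2 differences of about 0.5 can be missed, and CYP51A1, HSD17B7, ABCG1 and FNTB rest on few counts.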
